A study of Mus musculus with 6 samples.

Results

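The genes that carry Wnt signals were followed through 6 lists of H3K4me3 peaks from STHdh cells, conditionally immortalised mouse striatal progenitor lines used to study Huntington's disease. Members were chosen by name: every protein-coding gene called Wnt or Fzd followed by a digit, together with 16 further genes of the pathway, which gave 45 of the 21911 protein-coding genes annotated. They were 19 Wnt ligands, 10 Frizzled receptors, the 2 co-receptors Lrp5 and Lrp6, the 4 destruction complex genes Axin1, Axin2, Apc and Gsk3b, Ctnnb1, the 4 TCF/LEF factors Lef1, Tcf7, Tcf7l1 and Tcf7l2, and the 5 secreted antagonists Dkk1, Dkk2, Dkk3, Sfrp1 and Sfrp2.

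Each condition had 1 peak list. All 6 came from cells of strain C57BL/6 held in serum-free medium for 24 hours. Q7SST was the wild type STHdhQ7 line with vehicle, and Q111SST was the STHdhQ111 line, a homozygous knock-in of mutant huntingtin, with vehicle. The other 4 lists came from STHdhQ111 cells given cyproheptadine, loxapine, diacylglycerol kinase inhibitor II (DKI) or meclizine at 10 uM. The wild type and mutant genotypes were each represented by 1 cell line, so genotype and line cannot be told apart. Replicate spread could not be measured from 1 list each, and every value below is a description without a test.

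H3K4me3, trimethylation of lysine 4 of histone H3, marks the promoters of active genes and of genes poised for expression. A gene counted as marked in a list if that list held a peak no more than 1 kb from an annotated start of the gene. The strength of a marked gene was the rank of its strongest such peak, by the authors' own score, among all peaks of the same list, from 0 for the weakest to 100 for the strongest (strength percentile). Scores were ranked within a list because their scale was not stated.

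Wnt proteins are secreted glycoproteins that bind a Frizzled receptor together with the co-receptor Lrp5 or Lrp6. Without a ligand, a complex built on Axin and Apc lets Gsk3b phosphorylate beta-catenin, the product of Ctnnb1, for destruction. With a ligand beta-catenin accumulates and acts in the nucleus with the TCF/LEF factors, while Dkk and Sfrp proteins restrain the signal outside the cell. In the embryonic forebrain Wnt signals come mainly from dorsal territories, whereas the striatum forms ventrally.

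The lists held 30758 peaks (DKI) to 45564 peaks (loxapine), and the reads behind them are unknown. Of 6 striatal lineage markers, 5 or 6 were marked in each list, with Gsx2 marked only in Q7SST. Of the neural progenitor markers, Vim and Notch1 were marked in all 6 lists, Nes in all but cyproheptadine, Sox2 in all but Q7SST, and Pax6 in all but cyproheptadine and DKI. Of 6 mesenchymal markers 4 or 5 were marked, and of 6 markers of mature striatal neurons 1 or 2. The dopamine receptor genes Drd1 and Drd2 were marked in 0 lists. None of 6 blood cell markers was marked in any list, and of 6 liver or heart markers only Apoa1 was marked, in Q7SST.

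With a peak within 1 kb of a start as the rule, the part of the pathway that receives and relays the signal was marked almost throughout. The ligands were divided. Q7SST, Q111SST and meclizine each marked 36 of the 45 members, against 59.9%, 58.4% and 58.6% of all protein-coding genes. Loxapine marked 34 members, DKI 33 and cyproheptadine 31, against 58.1%, 55.8% and 55.4%. In all 6 lists 29 members were marked, or 64.4%, beside 53.5% of all genes. The order was the opposite among genes with a CpG-rich start (observed over expected CpG of 0.6 or more within 500 bp), where 26 of 37 members were marked in all 6 lists, or 70.3%, beside 86.0% of all such genes. Below that limit 3 of 8 members were, or 37.5%, beside 24.0%. The direction also turned when a peak had to cover a start, with 13 members marked in all 6 lists, or 28.9%, beside 42.3% of all genes, and when scores had to reach 47, with 15, or 33.3%, beside 43.4%. With a start covered the members were below all genes in cyproheptadine (37.8% beside 45.4%), loxapine (44.4% beside 48.7%) and DKI (37.8% beside 47.2%) and above them in Q7SST (55.6% beside 53.0%), Q111SST (53.3% beside 51.5%) and meclizine (60% beside 52.4%). In 0 lists 7 were marked, or 15.6%, beside 37.0%, and the status of 9 differed between lists, or 20%, beside 9.52%.

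Both co-receptors, all 4 destruction complex genes, Ctnnb1 and all 4 TCF/LEF factors were marked in 6 of 6 lists. So were 8 of the 10 Frizzled receptors, Fzd1 to Fzd8, while Fzd9 was marked in 4 lists and Fzd10 in 0. Of the 19 ligands 8 were marked in all 6 lists: Wnt1, Wnt2, Wnt5a, Wnt6, Wnt7a, Wnt9a, Wnt11 and Wnt16. Another 4 ligands, Wnt2b, Wnt8a, Wnt8b and Wnt9b, were marked in 0 lists. The remaining 7 ligands changed status, with Wnt5b, Wnt10a and Wnt10b marked in 5 lists, Wnt3 and Wnt7b in 4, Wnt4 in 2 and Wnt3a in 1. Of the antagonists Dkk2 and Sfrp1 were marked in all 6 lists, Sfrp2 in 2 and Dkk1 and Dkk3 in 0. In every list a peak lay 3279 to 3745 bp from the Dkk3 start and 3511 to 3707 bp from the Wnt8a start. With a window of 5 kb both were marked in 6 lists. When a peak had to cover a start, Ctnnb1, Lrp6, Fzd7 and Wnt6 were marked in 0 lists. Lef1, Fzd3 and Sfrp1 were then marked in 1, Lrp5, Wnt1 and Dkk2 in 2, and Fzd2, Fzd5 and Wnt9a in 3.

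**Figure D1:**
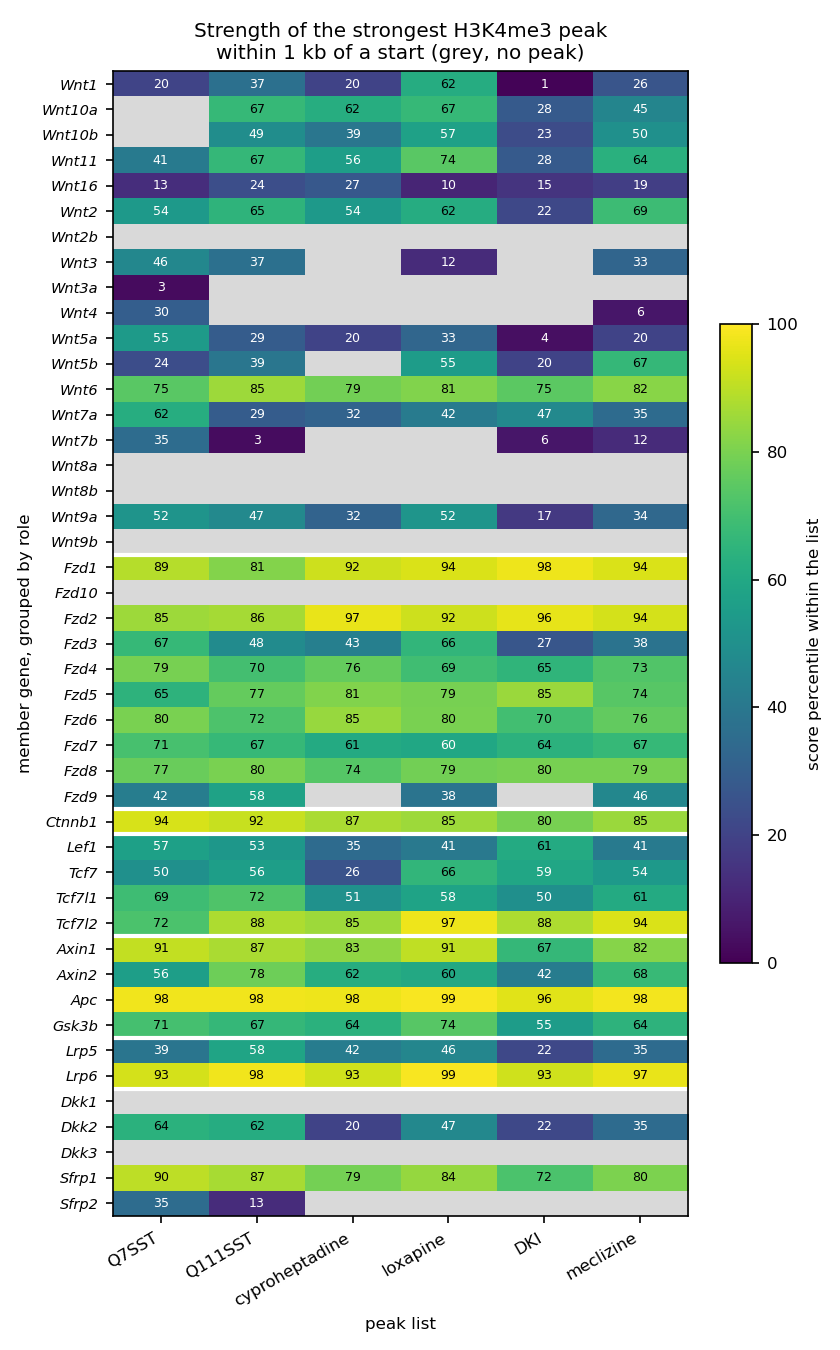
Strength percentile of the strongest H3K4me3 peak within 1 kb of a start for the 45 members (rows, grouped by role) in the 6 peak lists (columns), with the value printed in each cell and grey where no peak lay in the window. The 9 members with both grey and coloured cells include 7 ligands, and the cells of Apc, Lrp6 and Ctnnb1 are all at 79.6 or above.

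Marked members carried weaker peaks than marked genes in general. Over the 29 members marked in all 6 lists the median strength percentile was 69.0 in Q7SST, 70.2 in Q111SST, 62.4 in cyproheptadine, 69.5 in loxapine, 61.3 in DKI and 67.5 in meclizine. The medians of the 11713 protein-coding genes marked in all 6 lists were 82.7, 84.3, 80.0, 84.6, 77.2 and 82.2 in the same order. The lower level was seen in each of the 6 lists. Ranked among the strongest peaks of marked genes only, the members' medians lay between 22.2 (cyproheptadine) and 28.6 (Q7SST), so the median member was in the lower part of that ranking in every list.

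The medians of ligands and receptors differed in this ranking, although single genes overlapped. The 8 ligands marked throughout had median strength percentiles of 52.8 in Q7SST, 42.0 in Q111SST, 32.0 in cyproheptadine, 57.0 in loxapine, 19.3 in DKI and 34.3 in meclizine. The 8 Frizzled receptors marked throughout had medians of 78.3, 74.3, 78.7, 79.0, 74.7 and 75.1 in that order. In each list the receptors had the higher median of the 2 groups, and the ligands spread more widely across lists. Wnt6 was the highest ligand in each list, at 74.5 in Q7SST, 85.2 in Q111SST, 78.6 in cyproheptadine, 81.1 in loxapine, 74.8 in DKI and 82.2 in meclizine. Fzd3 was a low receptor, at 66.8, 48.2, 43.1, 65.6, 26.6 and 38.1 in the order of the lists, and in Q111SST it lay below Wnt11 (66.6) and Wnt2 (65.2).

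Among the members with the strongest peaks Apc, a scaffold of the destruction complex, ranged from 95.6 (DKI) to 98.9 (loxapine) over the 5 mutant lists. It was at 97.9 in Q7SST. Lrp6 ranged from 92.6 (DKI) to 98.9 (loxapine) with 93.4 in Q7SST, while its relative Lrp5 lay between 21.8 (DKI) and 58.3 (Q111SST) with 38.9 in Q7SST. Lrp6 was above Lrp5 in each of the 6 lists. Axin1 ranged from 66.8 to 90.6 over the mutant lists, and Fzd1 and Fzd2 did not fall below 81.3 in any list.

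With the 1 kb window the wild type line differed from the mutant vehicle list at 4 members, all of them ligands. Wnt3a and Wnt4 were marked in Q7SST and not in Q111SST, 2 of the 9 members unmarked in Q111SST, or 22.2%, beside 8.64% of all such genes. Wnt10a and Wnt10b were marked in Q111SST and not in Q7SST, 2 of 36 members, or 5.56%, beside 3.56% of all genes marked in Q111SST. The 2 ligands absent from Q7SST are close relatives, and both were marked in all 5 mutant lists.

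At Wnt10b the score in Q111SST was 42 (strength percentile 49.1), in cyproheptadine 31 (39.2), in loxapine 55 (57.3), in DKI 24 (23.4) and in meclizine 54 (50.1). Each of these peaks covered the main start, that of the principal transcript, and they were 2825, 1025, 1228, 955 and 1862 bp wide. In Q7SST the nearest peak lay 8154 bp from a Wnt10b start. The Q111SST peak was the second widest strongest peak of any member in that list, after the 3195 bp peak at Gsk3b and before the 2813 bp peak at Fzd5.

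At Wnt10a the mutant scores were 70 in Q111SST (67.1), 55 in cyproheptadine (62.4), 70 in loxapine (66.8), 27 in DKI (28.1) and 48 in meclizine (45.5). These 5 peaks, 1621 to 2704 bp wide, did not cover the main start but began 656 to 764 bp downstream of it, over coding exon and intron, where a second annotated start lies. In Q7SST the nearest peak to a Wnt10a start was 6671 bp away. The positions were nearly the same in the 5 lists, and DKI was lowest by strength at both genes.

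Each of these ligands has another Wnt gene beside it. Wnt10a lies 19624 bp downstream of Wnt6 on the same strand of chromosome 1, and Wnt10b lies 11707 bp from Wnt1 on the opposite strand of chromosome 15. Wnt6 and Wnt1 were marked in Q7SST as well, so within both pairs the absence in Q7SST concerned 1 of the 2 genes. From 10 kb before the first gene of the pair to 10 kb after the second, peaks covered 7.08% of the Wnt6 and Wnt10a locus in Q7SST, and 14.5% in Q111SST, 8.99% in cyproheptadine, 14.3% in loxapine, 11.9% in DKI and 12.9% in meclizine. For the Wnt10b and Wnt1 locus the values were 9.15%, 15.0%, 7.99%, 10.5%, 9.42% and 13.7% in the same order, so Q7SST was the lowest at the first locus and was above cyproheptadine at the other. Inside Wnt10a, 11423 to 12408 bp from its main start, Q7SST alone had a 986 bp peak with a score of 39 (38.9). Past the 3′ end of Wnt10a, a further peak was 499 bp wide in Q7SST and 1946 to 3045 bp wide in the mutant lists.

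**Figure D2:**
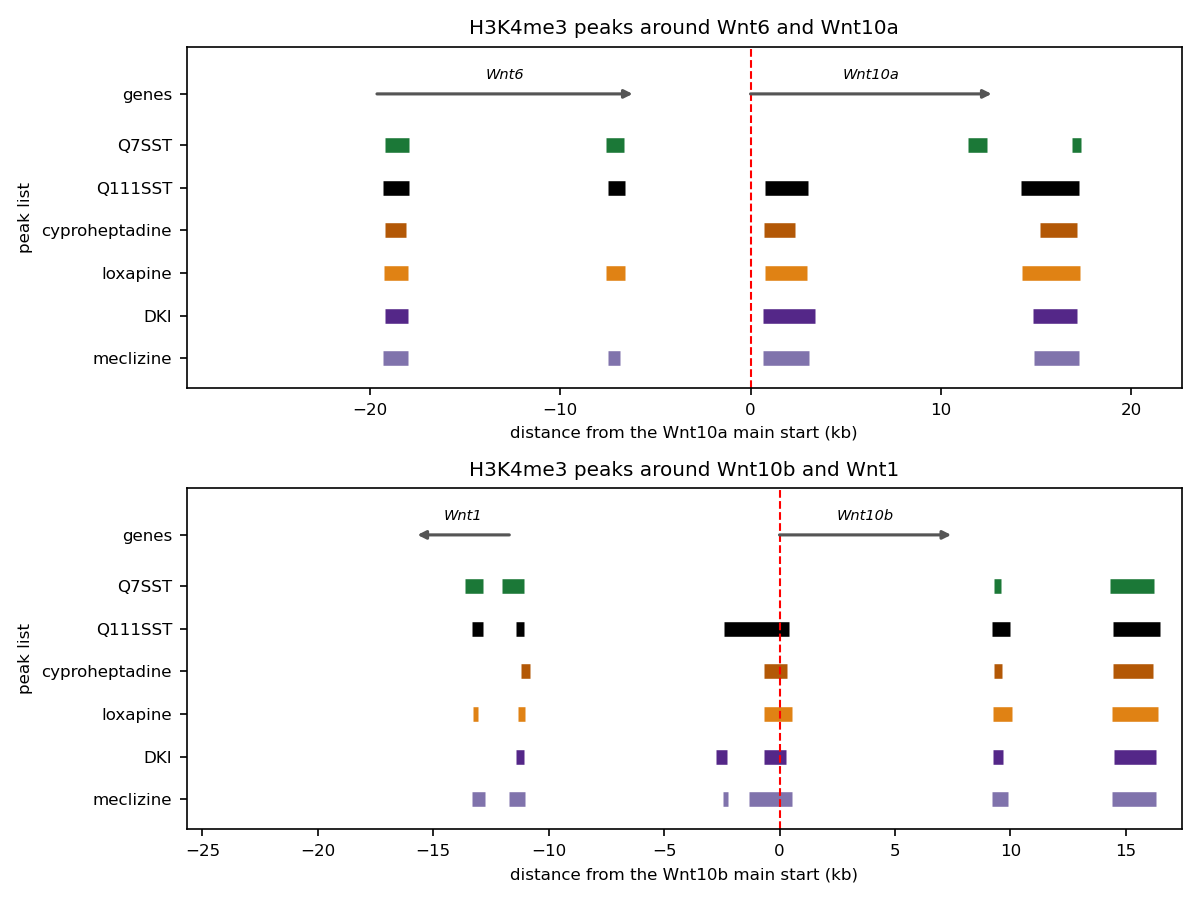
H3K4me3 peaks (bars) of the 6 lists around Wnt6 and Wnt10a (top) and Wnt10b and Wnt1 (bottom), against distance in kb from the main start of Wnt10a or Wnt10b (dashed line), with arrows for the genes in the direction of transcription. The 5 mutant lists have a peak 656 to 764 bp downstream of the Wnt10a start and a peak across the Wnt10b start, and Q7SST has neither, while Wnt6 and Wnt1 have a peak in every list.

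The promoters of Wnt10b, marked only in the mutant lists, and Wnt3a, marked only in Q7SST, are printed to show how their CpG content differs. Each run is the 250 bases before the RefSeq start of the gene on GRCm38.p6, both read from the minus strand, with each CpG in capitals. Wnt10b (chr15:98778151-98778400) holds 14 CpG and Wnt3a (chr11:59290752-59291001) holds 41.
Wnt10b: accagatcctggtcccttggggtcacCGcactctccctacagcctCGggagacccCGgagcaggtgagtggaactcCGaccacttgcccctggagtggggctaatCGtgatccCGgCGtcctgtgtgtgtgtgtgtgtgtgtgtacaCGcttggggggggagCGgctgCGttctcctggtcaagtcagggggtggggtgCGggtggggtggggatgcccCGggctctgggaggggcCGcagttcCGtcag
Wnt3a: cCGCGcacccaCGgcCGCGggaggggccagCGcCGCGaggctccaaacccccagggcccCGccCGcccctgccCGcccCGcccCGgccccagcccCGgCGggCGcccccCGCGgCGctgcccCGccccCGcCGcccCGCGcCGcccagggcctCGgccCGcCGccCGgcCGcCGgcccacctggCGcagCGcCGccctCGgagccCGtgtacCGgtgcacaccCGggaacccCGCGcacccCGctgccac
Unmethylated CpG-rich DNA recruits H3K4 methyltransferase complexes, and H3K4me3 is common at CpG-rich promoters.

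The Wnt3a and Wnt4 peaks of Q7SST were weak. Wnt3a had a score of 16 (2.76), from a 686 bp peak that began 476 bp downstream of the start, in an intron. In the mutant lists the nearest peak was 7616 to 11915 bp away. Wnt4 had a score of 32 (29.8) in Q7SST from a 776 bp intronic peak and of 17 (5.91) in meclizine from a 275 bp peak upstream of the start. Q7SST also had a 197 bp peak upstream, with a score of 17 (4.60), that overlapped the meclizine peak. In the other 4 lists the nearest peak to Wnt4 was 38889 bp or more away. With the 1 kb window and full lists meclizine was the only compound list with a gain at a member. When each list was cut to its 30758 strongest peaks Wnt3a was marked in 0 lists and Wnt4 in 1, Q7SST. Meclizine then had 0 gains against Q111SST and DKI 1.

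Against Q111SST the compound lists lacked a mark at 5 members in all and had an added mark at 1. These comparisons share the Q111SST list. Cyproheptadine lacked 5 of the 36 members marked in Q111SST, Wnt3, Wnt5b, Wnt7b, Fzd9 and Sfrp2, or 13.9%, beside 5.70% of all genes marked there. With each list cut to its 30758 strongest peaks cyproheptadine lacked 3 of 34 (Wnt3, Wnt5b, Fzd9), or 8.82%, beside 3.58%, and with a window of 5 kb 3 of 38 (Wnt3, Fzd9, Sfrp2), or 7.89%, beside 6.54%. DKI lacked 3 (Wnt3, Fzd9, Sfrp2), or 8.33%, beside 4.94%. Loxapine lacked 2 (Wnt7b, Sfrp2), or 5.56%, beside 2.12%, and meclizine 1 (Sfrp2), or 2.78%, beside 1.37%. Of the 9 members unmarked in Q111SST, meclizine gained 1, Wnt4, or 11.1%, beside 2.46% of all such genes. Cyproheptadine, loxapine and DKI gained 0, beside 0.735%, 2.43% and 0.647%.

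Wnt3, which acts through beta-catenin in the early embryo, and Fzd9 were unmarked in the 2 shortest lists, cyproheptadine and DKI. Wnt3 had a score of 46 (46.4) in Q7SST, 31 (36.8) in Q111SST, 17 (12.2) in loxapine and 35 (32.6) in meclizine. Its peak was 1113 bp wide in Q7SST, 716 bp in Q111SST, and 246 and 255 bp in loxapine and meclizine. The upstream edges were alike in these lists and the downstream edges were not, since the peak covered the start in Q7SST and ended 188 bp before it in Q111SST, 739 bp before it in loxapine and 759 bp before it in meclizine. In cyproheptadine and DKI the nearest peak was 75622 and 75708 bp away.

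Fzd9 had scores of 42 (42.4) in Q7SST, 53 (57.6) in Q111SST, 34 (38.3) in loxapine and 49 (46.3) in meclizine, and each of these peaks covered the start. Their widths were 1097, 1318, 496 and 478 bp. The absence at Fzd9 in cyproheptadine and DKI was the one at the strongest Q111SST peak among the 5 members that a compound list lacked. The nearest peaks in those lists were 61840 and 61698 bp away.

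Wnt5b, a ligand that mostly signals without beta-catenin, was unmarked in cyproheptadine only, where the nearest peak was 2537 bp from a start. Its scores were 28 (23.7) in Q7SST, 33 (39.4) in Q111SST, 52 (55.1) in loxapine, 22 (20.2) in DKI and 84 (66.7) in meclizine. The meclizine value came from a 232 bp peak at an internal start 76471 bp downstream of the main start, and the meclizine peak over the main start had a score of 30 (26.3). At the main start the 5 lists thus ranged from 20.2 to 55.1.

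Wnt7b had scores of 36 (35.2) in Q7SST, 12 (3.23) in Q111SST, 14 (5.96) in DKI and 21 (12.4) in meclizine, and was unmarked in cyproheptadine and loxapine, where peaks lay 2284 and 1650 bp away. Sfrp2 had scores of 36 (35.2) in Q7SST and 17 (12.9) in Q111SST. The Q7SST peak ended 127 bp before the start, whereas the Q111SST peak lay 1457 bp inside the gene and came within the window, at 925 bp, only through the start of a transcript not typed as coding. With starts of coding transcripts alone Sfrp2 was marked in Q7SST only. Loxapine then lacked 1 of the 35 members marked in Q111SST, or 2.86%, beside 2.04% of all genes, and meclizine 0, beside 1.34%. In loxapine and meclizine peaks lay 1703 and 1873 bp from a start. With a window of 5 kb Wnt5b and Wnt7b were marked in 6 lists and Sfrp2 in 4.

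Compared with each other at the same dose and time, the 4 compound lists gave 6 pairs. Cyproheptadine and meclizine differed in the status of 5 members, or 11.1%, beside 3.77% of all genes. Cyproheptadine and loxapine, which the study placed together as Group A, differed at 3 (Wnt3, Wnt5b, Fzd9), or 6.67%, beside 3.35%. DKI and meclizine, its Group B, differed at 3 (Wnt3, Wnt4, Fzd9), or 6.67%, beside 3.30%. Loxapine and DKI differed at 3 (Wnt3, Wnt7b, Fzd9), beside 3.05%. Cyproheptadine and DKI differed at 2 (Wnt5b, Wnt7b), or 4.44%, beside 2.11%, and loxapine and meclizine at 2 (Wnt4, Wnt7b), beside 2.17%. The pairs with the fewest differences crossed the groups and were the 2 shorter and the 2 longer of the compound lists. The lists held 33721 peaks in cyproheptadine, 30758 in DKI, 38577 in meclizine and 45564 in loxapine, and loxapine and DKI, the furthest apart in peak number, did not have the most differences. The part of list size in the differences was not tested.

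Among members marked in all 6 lists, the vehicle lists of the lines differed most in strength at Wnt7a, Wnt5a and Wnt11. Wnt7a, expressed in the developing nervous system, had scores of 69 (62.5) in Q7SST, 26 (29.3) in Q111SST, 26 (32.0) in cyproheptadine, 37 (41.7) in loxapine, 43 (47.0) in DKI and 37 (34.8) in meclizine. Wnt5a, the best studied ligand that signals without beta-catenin, had 56 (54.7), 26 (29.3), 19 (20.2), 30 (33.1), 13 (4.19) and 26 (20.2) in the same order. At both genes Q7SST was above all 5 mutant lists. The DKI value of Wnt7a came from a 231 bp peak that ended 284 bp before the main start. A DKI peak inside Wnt7a had a score of 27 (28.1), and the other lists had peaks of 1921 to 2279 bp over the main start. The Wnt5a peaks of cyproheptadine and DKI, 391 and 428 bp wide, covered no start. The Q7SST minus Q111SST differences were 33.2 and 25.4 percentile points, the 2 highest among these members.

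In the other direction Wnt11 had scores of 41 (41.3) in Q7SST, 69 (66.6) in Q111SST, 47 (56.0) in cyproheptadine, 86 (74.4) in loxapine, 27 (28.1) in DKI and 77 (63.6) in meclizine. Lrp5 had 39 (38.9), 54 (58.3), 33 (41.8), 41 (45.7), 23 (21.8) and 37 (34.8) in that order. Q7SST was 25.3 and 19.4 percentile points below Q111SST at these genes (-25.3 and -19.4), but it lay inside the range of the mutant lists.

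Counted over all 29 members, Q7SST strength was above all 5 mutant lists at 9 (Wnt5a, Wnt7a, Fzd3, Fzd4, Fzd7, Ctnnb1, Axin1, Dkk2 and Sfrp1), or 31%, beside 21.0% of all genes marked in 6 lists. It was below all 5 at 4 (Wnt6, Fzd2, Fzd5 and Tcf7l2), or 13.8%, beside 15.4%. This count and the counts of width below were chosen after values had been seen. At Fzd3 different peaks were compared, an intronic one in Q7SST (66.8) and one upstream of the start in loxapine (65.6). The upstream Fzd3 peak of Q7SST was at 45.4, below that of loxapine, and the intronic peak of loxapine was at 50.3.

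The 5 mutant lists spread most widely at Wnt1, Wnt2, Wnt11, Dkk2 and Tcf7. Over the 5 mutant lists Wnt1 ranged by 60.9 percentile points, with scores of 31 (36.8) in Q111SST, 19 (20.2) in cyproheptadine, 62 (62.0) in loxapine, 11 (1.16) in DKI and 30 (26.3) in meclizine, and 26 (20.4) in Q7SST. Wnt2 had scores of 55 (53.9) in Q7SST, 66 (65.2) in Q111SST, 45 (54.2) in cyproheptadine, 62 (62.0) in loxapine, 23 (21.8) in DKI and 89 (68.7) in meclizine. Tcf7 had 50 (50.0), 51 (56.2), 22 (25.6), 68 (65.6), 57 (59.1) and 60 (54.2). DKI was lowest at Wnt1, Wnt2 and Wnt11, and cyproheptadine was lowest at Tcf7 and Dkk2.

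Relative to Q111SST, strength was higher at 7 of the 29 members in DKI (24.1%, beside 21.6% of all genes marked in 6 lists) and lower at 22, with a median change of -10.3 percentile points beside -6.45. In cyproheptadine it was higher at 7 (24.1% beside 27.8%), with a median of -5.96 beside -3.62, and in meclizine at 8 (27.6% beside 34.3%), with -3.03 beside -1.56. In loxapine it was higher at 16 (55.2% beside 46.9%), with a median of 1.04 beside -0.337. These shares were near those of all genes. The members thus moved in the direction of all genes in DKI, cyproheptadine and meclizine. In DKI the median change was -27.8 for the 8 ligands, -27.7 for the 2 antagonists, -20.9 for the 2 co-receptors, -16.0 for the 4 destruction complex genes, -12.0 for Ctnnb1, -1.15 for the 8 Frizzled receptors and 1.57 for the 4 TCF/LEF factors. The fall was thus shared by most roles, and Fzd1 and Fzd2 were higher than in Q111SST with each of the 4 compounds.

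The Q7SST peak was much wider than the mutant peaks at Axin2, Dkk2 and Sfrp1. At Axin1 and Apc it was not, since the Q7SST and widest mutant peaks were 2330 and 2466 bp at Axin1 and 2045 and 2114 bp at Apc. Gsk3b has a peak on each side of its main start, and the upstream one was 1447 bp wide in Q7SST and 489 to 979 bp in the mutant lists, while the downstream one was 3278 bp and 2572 to 3308 bp. Axin2, a feedback inhibitor and a well known target of beta-catenin, had a peak of 2641 bp in Q7SST and of 1082 bp in Q111SST, 938 bp in cyproheptadine, 1062 bp in loxapine, 997 bp in DKI and 1153 bp in meclizine. All 6 peaks began 242 to 382 bp before the start, and the Q7SST peak ran to 2272 bp after it, against 671 to 819 bp in the mutant lists. Its score was 58 (56.1) in Q7SST, 97 (77.9) in Q111SST, 55 (62.4) in cyproheptadine, 59 (60.2) in loxapine, 38 (41.9) in DKI and 86 (67.5) in meclizine. The wild type peak at Axin2 was therefore the widest, while its strength was 21.9 percentile points below that of Q111SST (-21.9).

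Dkk2, which binds Lrp5 and Lrp6, had widths of 2611 bp in Q7SST, 742 bp in Q111SST, 247 bp in cyproheptadine, 471 bp in loxapine, 382 bp in DKI and 910 bp in meclizine. Its scores were 72 (64.0), 60 (61.9), 19 (20.2), 42 (46.7), 23 (21.8) and 37 (34.8) in the same order. The vehicle lists of the lines were alike in strength at Dkk2 and unlike in width. Sfrp1, which binds Wnt proteins, had widths of 1483, 584, 319, 637, 402 and 514 bp. Its peak covered the start in Q7SST and ended 17 to 104 bp before it in the mutant lists, and its strength percentile was 90.0 in Q7SST and 71.5 to 86.8 in the mutant lists.

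These 3 members were those whose Q7SST peak was at least 2 times as wide as the widest mutant peak, 10.3% of the 29, beside 0.461% of all genes marked in 6 lists. With peaks less than 1 kb apart joined there were 5 such members, with Wnt1 and Tcf7l2 added, beside 0.632% of all genes. The Wnt1 region was then 2529 bp wide in Q7SST and 315 to 675 bp in the mutant lists. Tcf7l2 entered only because different promoters were compared: the 4093 bp region at its main start was taken in Q7SST through a tie in score and the internal start, 914 to 1230 bp, in the mutant lists. At the main start the joined region of Q111SST, 4713 bp, was wider than that of Q7SST. Q7SST had the widest peak of the 6 lists at 13 members, or 44.8%, beside 24.2%, and the narrowest at 1, Wnt16, or 3.45%, beside 9.34%. At Wnt16 the peak was 599 bp wide in Q7SST and 899 to 2044 bp wide in the mutant lists. Tcf7l2 was among the 13 through the same tie, since its Q7SST peaks of 727 bp at the main start and 1428 bp at an internal start had equal scores and the latter was taken. At the main start the Q7SST peak was narrower than the mutant peaks, which were 1039 to 1421 bp wide. Over the 29 members the median width was 1874 bp in Q7SST, 1999 bp in Q111SST, 1102 bp in cyproheptadine, 1445 bp in loxapine, 1042 bp in DKI and 1824 bp in meclizine. The medians of all genes marked in 6 lists were 1781, 1859, 1564, 1777, 1488 and 1736 bp.

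**Figure D3:**
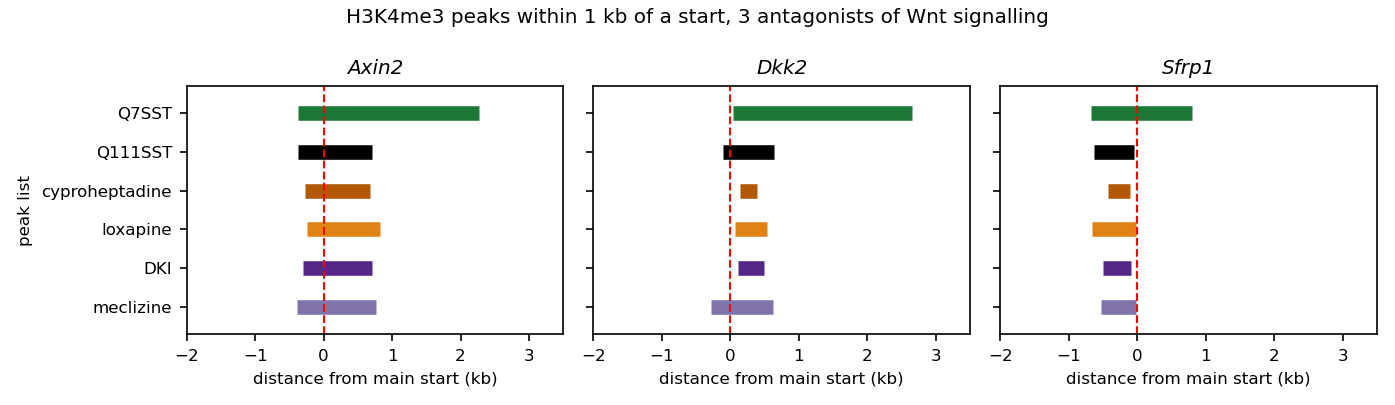
H3K4me3 peaks within 1 kb of a start (bars) at Axin2, Dkk2 and Sfrp1 in the 6 lists, against distance in kb from the main start (dashed line). The Q7SST bars, 2641, 2611 and 1483 bp wide, reach further into each gene than those of the 5 mutant lists, which are at most 1153, 910 and 637 bp wide.

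The promoters of Axin2 and Dkk2 are shown because the same difference in width occurred at unlike sequences. The runs are the 250 bases before the RefSeq starts on the plus strand of GRCm38.p6, with each CpG in capitals. Axin2 (chr11:108920099-108920348) holds 24 CpG and Dkk2 (chr3:132085042-132085291) holds 7.
Axin2: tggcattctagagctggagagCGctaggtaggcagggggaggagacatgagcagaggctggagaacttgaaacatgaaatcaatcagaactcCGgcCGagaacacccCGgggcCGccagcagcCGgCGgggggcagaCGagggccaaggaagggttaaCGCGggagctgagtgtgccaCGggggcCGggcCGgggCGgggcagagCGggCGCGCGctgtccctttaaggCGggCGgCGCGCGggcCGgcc
Dkk2: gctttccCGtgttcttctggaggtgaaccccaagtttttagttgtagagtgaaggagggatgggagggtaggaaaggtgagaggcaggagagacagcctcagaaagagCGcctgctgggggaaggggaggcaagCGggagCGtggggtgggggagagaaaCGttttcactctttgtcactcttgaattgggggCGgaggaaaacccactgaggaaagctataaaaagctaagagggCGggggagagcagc

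In the nucleus, Ctnnb1 had scores of 167 (93.9) in Q7SST, 146 (91.6) in Q111SST, 104 (87.5) in cyproheptadine, 117 (85.2) in loxapine, 92 (79.6) in DKI and 138 (85.0) in meclizine. Q7SST was the highest and DKI the lowest. Each peak was 2015 to 2502 bp wide and lay in an intron, from 970 to 1197 bp downstream of the main start, and the nearest of its 15 annotated starts was 552 to 779 bp away. Lef1, itself a target of the pathway, had scores of 59 (56.7), 47 (53.1), 28 (35.0), 36 (40.6), 60 (61.3) and 43 (41.0) in the order of the lists. The DKI value of Lef1 came from a 250 bp peak, whereas the strongest peaks of the other lists were 1954 to 2308 bp wide.

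Tcf7l2 was marked at more than 1 promoter. It had 3 peaks within 1 kb of its 17 annotated starts in every list. The peak at an internal start, 152514 to 152612 bp downstream of the main start, had scores of 90 (71.9) in Q7SST, 129 (87.6) in Q111SST, 98 (85.3) in cyproheptadine, 190 (97.4) in loxapine, 113 (87.9) in DKI and 184 (94.3) in meclizine. The peak at the main start had scores of 90 (71.9), 62 (63.1), 67 (70.3), 82 (72.6), 76 (71.5) and 112 (77.2). In Q7SST the scores at these promoters were equal, and in the 5 mutant lists the internal one was higher.

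Peaks beside a start rather than over it were frequent among the members. Of those marked, 11 of 36 in Q7SST had no annotated start under a peak (30.6%), 12 of 36 in Q111SST (33.3%), 14 of 31 in cyproheptadine (45.2%), 14 of 34 in loxapine (41.2%), 16 of 33 in DKI (48.5%) and 9 of 36 in meclizine (25%). For all marked genes the shares were 11.5%, 11.7%, 18.0%, 16.3%, 15.3% and 10.6%. Wnt6, Fzd7, Ctnnb1 and Lrp6 had no start covered in any of the 6 lists, 4 of 29, or 13.8%, beside 4.80% of all genes marked in 6 lists, a count made after values had been seen. Lrp6 had a peak on each side, the upstream one ending between positions -490 and -433 relative to the main start and the downstream one beginning 565 to 607 bp after it.

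Gsk3b had the same arrangement around its main start. The downstream peak had scores of 50 (50.0) in Q7SST, 69 (66.6) in Q111SST, 57 (63.7) in cyproheptadine, 75 (69.5) in loxapine, 52 (55.1) in DKI and 79 (64.5) in meclizine. The upstream peak had scores of 87 (70.6), 55 (59.0), 57 (63.7), 85 (74.0), 28 (29.5) and 53 (49.4). The upstream peak was the stronger in Q7SST and loxapine and equal in cyproheptadine, so the width of the strongest Gsk3b peak, 1447 and 958 bp there and 2572 to 3308 bp in the other lists, refers to different peaks. Fzd5, with widths of 3003 bp in Q7SST, 2813 bp in Q111SST and 2666 bp in meclizine, was split in cyproheptadine, loxapine and DKI, with strongest peaks of 960, 982 and 821 bp. Its strength percentile was 64.5, 76.6, 80.9, 79.4, 84.8 and 74.1 in the order of the lists, so the list with the widest peak had the lowest rank.

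**Figure D4:**
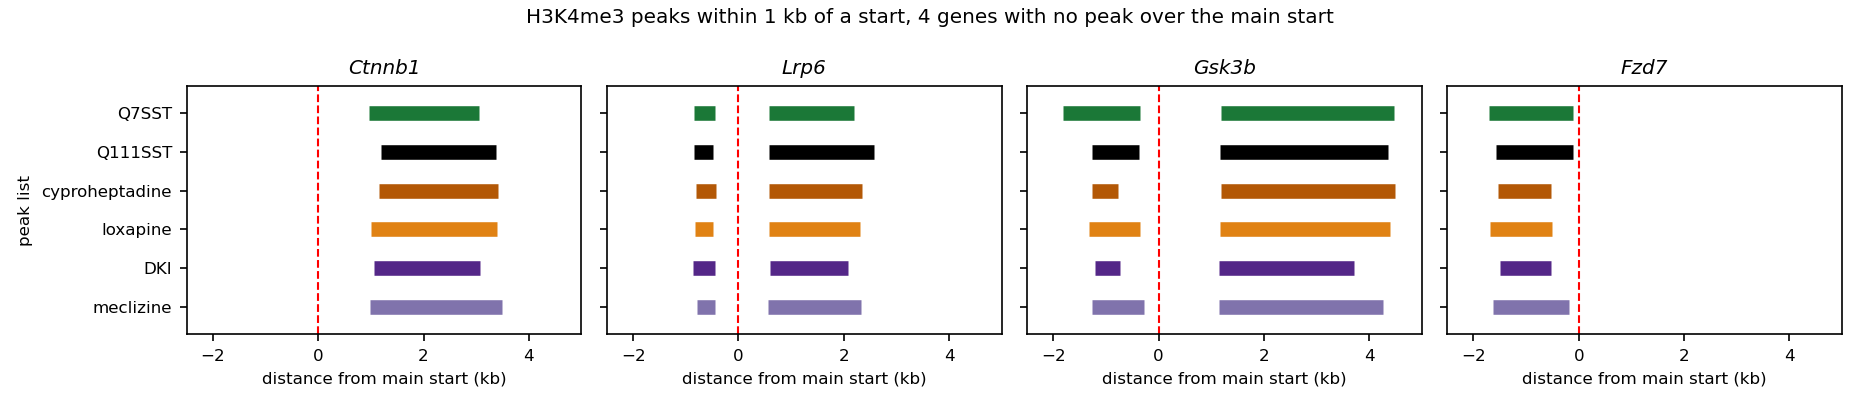
H3K4me3 peaks within 1 kb of a start (bars) at Ctnnb1, Lrp6, Gsk3b and Fzd7 in the 6 lists, against distance in kb from the main start (dashed line). In every list the bars leave the main start uncovered, with the Ctnnb1 peaks beginning 970 to 1197 bp downstream and the Fzd7 peaks ending 104 to 529 bp upstream.

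Unmarked members fell into CpG-rich and CpG-poor promoters. CpG content was measured as the observed over expected number of CpG within 500 bp of the main start, for all 45 members. The median was 0.832 for members marked in all 6 lists, 0.788 for those whose status differed and 0.445 for those marked in 0 lists. All protein-coding genes had medians of 0.743, 0.499 and 0.192 in the same classes. Over all members the median was 0.809, beside 0.571 for all genes. Of the 7 unmarked members Fzd10 (0.813), Wnt2b (0.802) and Wnt9b (0.753) lay above the median of all genes marked in 6 lists, and Dkk1 (0.445), Dkk3 (0.425), Wnt8b (0.326) and Wnt8a (0.254) lay below it. With a window of 5 kb Dkk3 and Wnt8a were marked in 6 lists and Wnt8b in 1. Members marked in all 6 lists were not all CpG-rich, since Wnt16 had 0.349 and Dkk2 0.479.

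**Figure D5:**
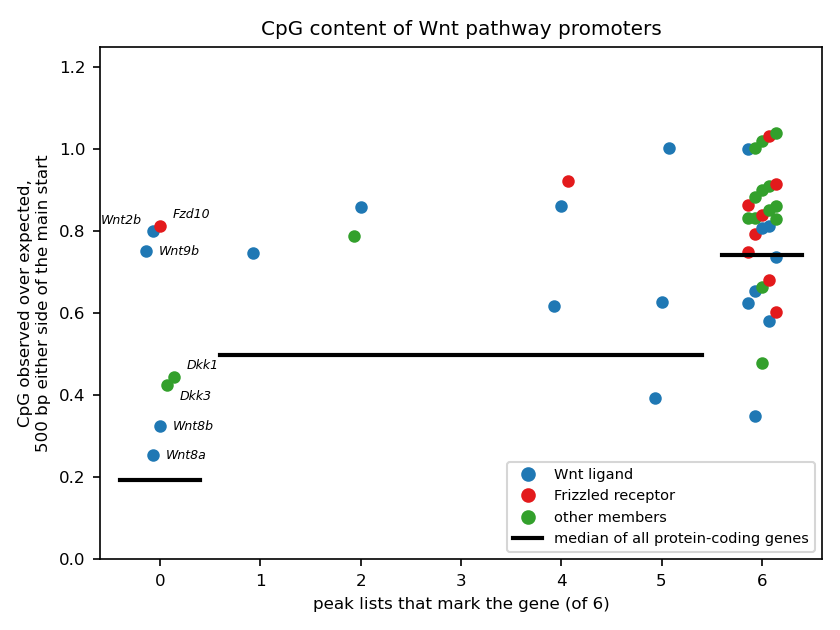
CpG observed over expected within 500 bp of the main start of each member (points, coloured by role and spread sideways for legibility) against the number of lists that marked it, with bars for the median of all protein-coding genes marked in 0 lists (0.192), 1 to 5 lists (0.499) and 6 lists (0.743). The 7 members marked in 0 lists separate into 3 points at 0.753 to 0.813 and 4 points at 0.254 to 0.445.

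Ctnnb1, marked in 6 lists, and Wnt8b, marked in 0, are printed to show the range of CpG content. Both runs are the 250 bases before the RefSeq start on the plus strand of GRCm38.p6, with CpG in capitals. Ctnnb1 (chr9:120933150-120933399) holds 35 CpG and Wnt8b (chr19:44493222-44493471) holds 5.
Ctnnb1: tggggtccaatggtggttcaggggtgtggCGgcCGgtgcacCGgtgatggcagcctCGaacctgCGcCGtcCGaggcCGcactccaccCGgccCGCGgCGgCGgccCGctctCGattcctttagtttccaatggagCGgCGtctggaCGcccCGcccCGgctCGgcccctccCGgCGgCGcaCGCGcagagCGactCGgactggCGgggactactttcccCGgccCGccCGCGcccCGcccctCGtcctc
Wnt8b: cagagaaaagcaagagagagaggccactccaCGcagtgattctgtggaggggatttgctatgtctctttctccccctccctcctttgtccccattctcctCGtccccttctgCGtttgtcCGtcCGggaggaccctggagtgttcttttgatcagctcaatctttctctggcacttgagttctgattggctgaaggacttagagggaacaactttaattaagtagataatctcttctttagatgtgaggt
The nearest peak to a Wnt8b start was 1387 bp away in Q7SST and 32617 to 34623 bp away in the mutant lists.

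TCF/LEF factors bind the letters CTTTGAT or CTTTGAA, which share their leading 6 letters. On either strand, 1 of these was found within 500 bp of the main start in 12 of 45 members, or 26.7%, beside 24.8% of all genes. Axin2, Dkk1, Tcf7l2 and Wnt8a held 2 matches each. The share was near that of all genes, and a match is a description of letters and not of a bound site.

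Of 56 other genes of the pathway 42 were marked in all 6 lists, or 75%, beside 53.5% of all genes, and 6 in 0 (Rspo1, Rspo4, Sfrp5, Dkk4, Sost and Sostdc1), or 10.7%, beside 37.0%. The status of 8 differed, or 14.3%, beside 9.52%. Q7SST marked 48 and the mutant lists 43 or 44. Q7SST alone marked 5: Lgr5, a receptor for R-spondins, with a score of 46 (46.4), Celsr2, a cadherin of planar polarity, with 34 (32.6), the feedback inhibitors Nkd2 with 29 (25.2) and Nkd1 with 27 (22.1), and the Dkk receptor Kremen2 with 18 (6.14). These 5 were among the 12 of the 56 unmarked in Q111SST, or 41.7%, beside 8.64% of all such genes. Of the 44 marked in Q111SST cyproheptadine, loxapine and DKI each lacked 1, or 2.27%, beside 5.70%, 2.12% and 4.94% of all genes, and meclizine lacked 0, beside 1.37%. Apc2 was absent in Q7SST only, with 20.2 (cyproheptadine) to 61.3 (DKI) in the mutant lists. Tle2, a TCF corepressor, was unmarked in cyproheptadine, loxapine and DKI and had 15.1 in Q7SST, 52.3 in Q111SST and 3.04 in meclizine. Sfrp4 was marked in DKI only, at 41.9. Porcn and Wls, which Wnt proteins need for secretion, and Notum, which inactivates them, were marked in all 6 lists.

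Some member peaks also lay within 1 kb of the start of another gene, which they may mark as well. These were Fzd4 with Tmem135, Fzd5 with Gm38058, Fzd6 with Gm26704, Lef1 with Gm43352, Apc with Gm10548, Wnt7a with Gm30437 and Wnt7b with AU022754.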

How the data were processed

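H3K4me3 ChIP-Seq was performed on crosslinked, MNase-digested chromatin of STHdh cells with single-end 50 bp reads. Per the submitters' processing notes, Trimmomatic 0.36, Bowtie2, SAMtools 1.3, MACS2 and build mm10 were used; settings, input controls and pooling of the triplicate treatments are not given in the sources used here. The deposited lists give each peak's chromosome, start, end and the authors' whole-number score, whose scale is not stated and whose lowest value was 10 in each list. Reads were not used here, so depth is unknown.

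Peaks were compared with GENCODE vM21 starts of 21911 protein-coding genes (mitochondrial genes excluded) on GRCm38, and 0 of 21 chromosomes had a peak past its end. Coordinates count from 1. The main start was the most upstream start among principal transcripts. Groups came from the sample labels. Each result was computed for the whole annotation, without tests. Python 3.11.15, numpy 2.4.6, pandas 2.3.3 and pysam 0.24.0 were used, and the marking step was tested on simulated peaks.

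Members and gene lists were chosen with earlier results of these data known. Every member is named. Values in all lists are given for members whose status differed, Ctnnb1, Axin2, Lef1 and Tcf7l2, the 5 with the largest Q7SST to Q111SST difference in strength, the 5 with the largest range over the mutant lists, the 3 with the widest Q111SST peaks and those within 200 bp of the window limit. Values of Sfrp1, Wnt6, Wnt16, Lrp6, Fzd7, Apc, Axin1, Fzd1 and Fzd2 were added after they were seen.

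Promoter sequences are from RefSeq (GRCm38.p6). That table matched 31 of 45 members, under 80%, so the planned check of CpG content on it is void, and the genome sequence 500 bp either side of the main start was used. The counts by CpG class on that sequence were added after values were seen. Alternatives were other windows, score limits, list sizes, start types, strength measures and joined peaks.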

Additional observations from a re-analysis of the deposited data

How the results depend on the processing

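No paired analysis was possible because there is a lone list per condition. Depth, peak calling and the lack of replicates limit all values.

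With a peak required over the start, cyproheptadine marked 17 members, loxapine 20, DKI 17 and all 6 lists 13. With scores at or above the pooled median of 47, cyproheptadine marked 18, DKI 17 and all 6 lists 15. These were 40%, 37.8% and 33.3% of the members, beside 46.6%, 46.6% and 43.4% of all genes. These settings hold fewer peaks or a narrower window by construction.

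Against Q111SST, a peak over the start gave 5 gained and 4 lost in Q7SST, 1 and 8 in cyproheptadine, 1 and 5 in loxapine, 1 and 8 in DKI, and 4 gained in meclizine. Of 24 members marked in Q111SST the losses were 16.7% in Q7SST, 33.3% in cyproheptadine, 20.8% in loxapine and 33.3% in DKI. The shares of all genes were 5.28%, 12.6%, 7.62% and 9.74%. The score limit gave 4 gained and 4 lost in Q7SST, 5 and 4 in loxapine, 8 lost in DKI, and 2 gained and 3 lost in meclizine. Of 25 members marked in Q111SST these losses were 16%, 16%, 32% and 12%, beside 4.00%, 3.05%, 11.4% and 1.18% of all genes. Cyproheptadine lost 7, or 28%, beside 11.2%. A window of 5 kb gave 3 lost in cyproheptadine (7.89% beside 6.54%), 0 in loxapine (beside 2.09%) and 0 in meclizine (beside 2.00%). Lists of equal size gave 3 lost in cyproheptadine (8.82% beside 3.58%), 1 gained in DKI and 0 gained in meclizine. Starts of coding transcripts alone gave 1 lost in loxapine (2.86% beside 2.04%) and 0 in meclizine (beside 1.34%). Shares of all genes are not given for gains under these settings.

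Among marked genes only, the members' median strength was 28.6, 25.2, 22.2, 26.1, 27.4 and 26.3 in the order of the lists. Joining peaks less than 1 kb apart, chosen after seeing the data, gave 5 members at least 2 times as wide in Q7SST, of which Tcf7l2 entered by comparing different promoters. The RefSeq promoter window gave a median CpG ratio of 0.753 for the members marked in 0 lists, from 5 of 7. Other causes were not tested. Wnt10a and Wnt10b were marked in 5 lists under each alternative but the score limit, which left 4 and 2.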
